A study of Mus musculus with 8 samples.

Results

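The genes that build and patrol the primary cilium were followed in cultured mouse hippocampal neurons after depolarisation. Members were taken by gene symbol: intraflagellar transport (Ift), Bardet-Biedl (Bbs), nephronophthisis (Nphp), tectonic (Tctn), B9 domain (B9d) and Meckel (Mks) genes, with a further set of single symbols such as Ttc21b, Wdr19, Cep290 and Tulp3. Where a gene had several probe sets, the one used was chosen by its brightness, as the highest mean over all 8 arrays, and the module itself was singled out with the KCl results of these arrays known. The values and calls below therefore describe these genes and are not independent evidence about them. The rule found 41 genes of 22180 with a symbol of their own on the array. Of these, 1 gene, Tctn3, had a second probe set of its own. A further probe set carries the symbols of both Wdr19 and Prm2 and was not used. It read 4.47 to 4.91 over the arrays, with a difference of -0.03 between the means (KCl minus untreated). Tctn1 and Inpp5e were measured only by probe sets that also carry another gene's symbol (Hvcn1 and Pmpca), so neither is a member here. No gene of its own symbol was found for Arl6 or Arl13b.

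KCl at 55 mM was given for 4 h to 4 cultures of hippocampal neurons, and 4 cultures stayed untreated. All came from embryos of C57BL/6J, a common inbred mouse strain, at stage E18.5. They were kept for 11 days in vitro, with AraC, which kills dividing cells, added at the medium changes. Every array carries a different mouse number in the labels, which do not say whether embryos were pooled, so the p-values measure the spread between these arrays. RNA was read on Affymetrix whole-transcript arrays, and every level below is the authors' log2 probe set value, on which a difference of 1 is a doubling. Raised potassium outside a neuron depolarises it, so that calcium enters.

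The primary cilium is a single, non-motile antenna that most neurons and astrocytes carry, and it concentrates receptors for somatostatin, serotonin, melanin-concentrating hormone and Hedgehog ligands. Cargo moves along it on intraflagellar transport trains: IFT-B particles go out to the tip with kinesin-2, and IFT-A particles come back with dynein-2 and also carry membrane proteins in. The BBSome, a coat-like complex, takes receptors out again, and the transition zone at the base is the gate that decides which proteins pass. Many of the same genes also serve the motile cilia of ependymal cells, which carry tufts of them.

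Neuron markers were bright on every array. The mean of 14 neuron markers was 9.70 to 10.30 on KCl arrays and 9.65 to 10.21 on untreated arrays, and Snap25 stood between 12.21 and 12.47 on all 8. Astrocyte markers were bright as well, with Gfap at 10.45 to 11.25 on KCl arrays and 10.56 to 11.11 on untreated arrays. The means of 8 microglia markers (4.20 to 4.49) lay near the median of all probe sets, 4.44 to 4.48 per array. In a mixed culture, fewer cells of a type and less RNA per cell cannot be told apart. Titles number the arrays 1 to 4 in both groups, and same-numbered arrays deviated together, so the numbers were taken as pairs. Both arrays numbered 1 stood apart from the other 6 on the first principal component, which held 36.6% of the variance. On it the arrays numbered 1 stood at -43.2 (KCl) and -48.6 (untreated), and those numbered 2 at -4.6 and -2.1. Those numbered 3 and 4 stood at 20.6 to 26.6. Results are therefore also given without both arrays numbered 1, although differences by number remain among the other 6.

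Depolarisation for 4 h was accompanied by a fall of 1 cilium gene, Ttc21b, and 40 of the 41 members did not pass the test. That test leaves out the pairing by number, and adjusted p-values below come from it unless stated otherwise. With the replicate number as a block Ift81 passed as well (limma adjusted p = 0.0436). Ttc21b encodes IFT139, a subunit at the edge of the IFT-A particle that is needed for retrograde transport and, in mice, for normal restraint of Hedgehog signalling. Its values were 4.73, 4.81, 4.99 and 4.84 on the KCl arrays 1 to 4, against 6.18, 6.55, 7.34 and 6.55 on the untreated arrays 1 to 4. The groups did not overlap, and the KCl arrays lay near one another, close above the median of all probe sets. The mean was 4.843 ± 0.109 after KCl and 6.653 ± 0.492 in untreated cultures (SD, n = 4 each). That is a log2 change of -1.81 (SE 0.223, limma adjusted p = 0.00662), or 0.285 of the untreated level, and RMA values compress differences near background. All 4 same-numbered pairs were lower, with differences of -1.45, -1.74, -2.35 and -1.70. The call was kept with any single array left out (adjusted p = 0.0045 to 0.028), without both arrays numbered 1 (log2 change -1.93, adjusted p = 0.0106) and with the replicate number as a block (adjusted p = 0.00365).

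Of all 22180 genes, 1.02% fell and 1.34% rose at an adjusted p under 0.05, so 1 lower and 0 higher of 41 is a share near the background. At an unadjusted limma p under 0.05, 3 members were lower and 0 higher, where 7.34% of all genes were lower and 5.69% higher, so the count of lower members is again near the background. With the replicate block 2 members were lower, Ttc21b and the IFT-B gene Ift81, against 2.01% of all genes, and without both arrays numbered 1 there were again 2, Ttc21b and the transition zone gene Cep290, against 0.974%. KCl arrays lay wholly below untreated arrays for 2 members, Ttc21b and Bbs12, where 4.33% of all genes did so, and wholly above for 0, against 3.83%.

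**Figure D1:**
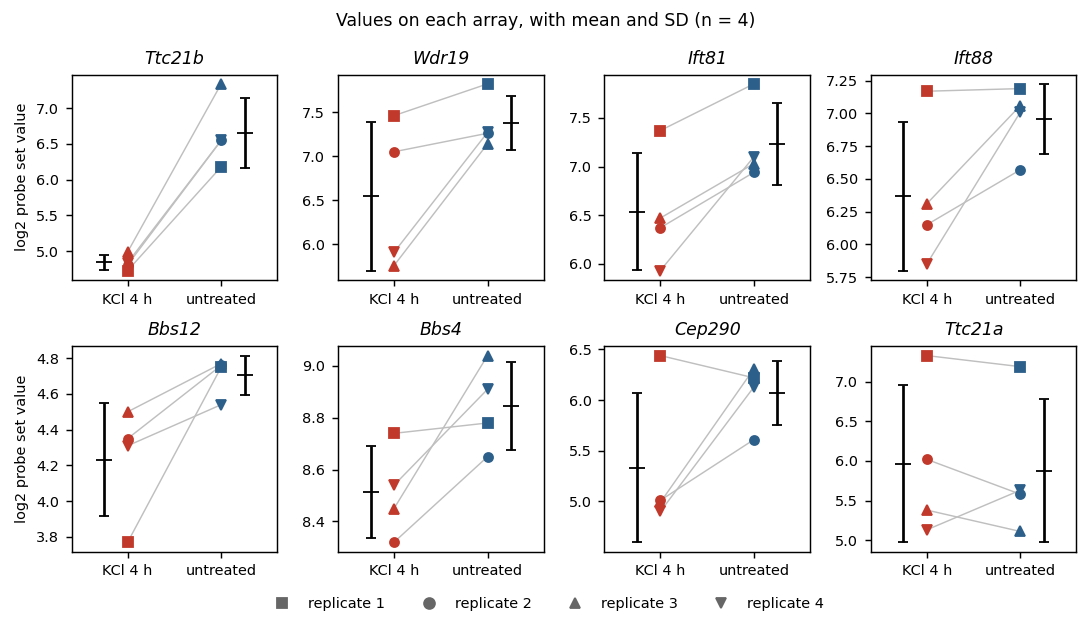
Log2 probe set values of 8 cilium genes on each array, KCl 4 h on the left and untreated on the right of each panel. Symbols mark the replicate number, grey lines join same-numbered arrays, and black bars give the mean and SD (n = 4 each). Ttc21b separates the groups completely, its paralog Ttc21a does not, and Cep290 is lower in the pairs numbered 2 to 4 but not in pair 1.

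The promoter window of Ttc21b is shown because it is the gene that fell, and that of its paralog Ttc21a because it did not pass the test. Windows are RefSeq's, on the GRCm38.p6 build, each with 250 bases before and 50 after the annotated start, printed 5′ to 3′ on the gene's own strand. Capitals mark a match to the X-box, the paired half-site through which RFX transcription factors act on many ciliary genes. The Ttc21b window held no X-box, no X-box half-site (GTTGCC), no cAMP response element half-site (TGACG) and no AP-1 site (TGANTCA), on either strand. That says only that these letters are not in this window.
Ttc21b, chr2:66256568-66256867, - strand: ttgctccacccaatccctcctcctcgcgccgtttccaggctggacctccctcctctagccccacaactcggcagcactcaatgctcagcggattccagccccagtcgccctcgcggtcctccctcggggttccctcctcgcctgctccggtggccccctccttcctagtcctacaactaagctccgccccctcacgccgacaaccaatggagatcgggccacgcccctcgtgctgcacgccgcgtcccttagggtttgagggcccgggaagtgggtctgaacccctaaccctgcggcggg
Ttc21a, chr9:119937356-119937655, + strand: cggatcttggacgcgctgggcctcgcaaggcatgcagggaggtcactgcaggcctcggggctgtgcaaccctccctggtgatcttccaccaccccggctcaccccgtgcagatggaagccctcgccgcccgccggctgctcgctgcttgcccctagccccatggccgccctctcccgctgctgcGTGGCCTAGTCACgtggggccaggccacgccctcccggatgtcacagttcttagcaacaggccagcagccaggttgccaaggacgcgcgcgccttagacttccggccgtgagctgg

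In the IFT-A particle, 1 of 7 measured subunits fell, the Ttc21b call already counted above, where 1.02% of all genes fell. The other 6 did not pass, and log2 changes over the 7 ran from -1.81 to 0.10. Ttc21a, the close relative of Ttc21b, had 7.33, 6.02, 5.38 and 5.13 on KCl arrays against 7.19, 5.58, 5.11 and 5.63 on untreated arrays. Those groups overlapped throughout, with a log2 change of 0.09 and a 95% interval of -1.20 to 1.38, which leaves room for a change in either direction. Wdr19, which encodes the core subunit IFT144, had 7.46, 7.05, 5.76 and 5.91 after KCl against 7.82, 7.26, 7.14 and 7.27 in untreated cultures. KCl arrays 3 and 4 were far below every untreated array while arrays 1 and 2 were close to theirs, and the log2 change of -0.83 (SE 0.382) did not pass (adjusted p = 0.415).

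Ift140, another core subunit, had 6.96, 6.52, 6.33 and 5.62 on KCl arrays against 7.42, 6.70, 6.82 and 6.71 on untreated arrays, lower in 4 of 4 pairs with a log2 change of -0.56 (adjusted p = 0.489). The remaining subunits were Ift43 at -0.31, Ift122 at -0.22 and Wdr35, which encodes IFT121, at 0.10. None of these passed the test. The neighbours of Ttc21b among measured genes in the RefSeq order were Scn1a and Galnt3, chosen after its fall was seen. The sodium channel gene Scn1a had a log2 change of -0.12 (adjusted p = 0.929). The mucin glycosyltransferase gene Galnt3 had 6.25, 5.33, 7.23 and 7.14 on KCl arrays against 4.51, 4.77, 6.10 and 5.90 on untreated arrays, a log2 change of 1.17 that did not pass without the block (adjusted p = 0.378), did with it (0.024), and did not with it once both arrays numbered 1 were left out (0.0522).

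In the IFT-B particle, 0 of 12 measured subunits passed in the fit without the block, and 0 had an unadjusted p under 0.05 in either direction. Log2 changes ran from -0.79 to 0.32, with 7 below 0 and 5 above. Ift81, which with Ift74 forms the tubulin-carrying module, had 7.37, 6.37, 6.47 and 5.93 on KCl arrays against 7.85, 6.94, 7.03 and 7.10 on untreated arrays. Every pair was lower, with differences of -0.48, -0.58, -0.56 and -1.16, although the groups overlapped, with both arrays numbered 1 high. Its log2 change of -0.70 had an SE of 0.316 without the block (adjusted p = 0.404) and 0.138 with it (adjusted p = 0.0436), and without both arrays numbered 1 the adjusted p was 0.064, or 0.082 with the block. Its partner Ift74 had a log2 change of 0.32 (95% interval -0.39 to 1.02).

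Ift88, the scaffold whose loss abolishes cilia in mice, had 7.17, 6.15, 6.31 and 5.85 on KCl arrays against 7.19, 6.57, 7.06 and 7.01 on untreated arrays. Arrays numbered 1 were level with each other and the other 3 pairs were lower, for a log2 change of -0.59 (SE 0.273, adjusted p = 0.416). Without both arrays numbered 1 the change was -0.78 (adjusted p = 0.0882). Ift27, a small GTPase that helps the BBSome leave the cilium, had 7.03, 6.35, 6.36 and 5.83 on KCl arrays against 7.22, 6.93, 6.62 and 6.56 on untreated arrays, a change of -0.44 (adjusted p = 0.559). Ttc26, which encodes IFT56 and was picked out after its values were seen, had 7.81, 6.43, 5.71 and 5.56 on KCl arrays against 7.09, 6.72, 7.52 and 7.35 on untreated arrays. Its pairs split, with 0.72 in pair 1 and -0.29, -1.81 and -1.80 in pairs 2, 3 and 4, for a log2 change of -0.79 (adjusted p = 0.572). Without both arrays numbered 1 the change was -1.30 (adjusted p = 0.0788). Of the other 7 subunits, Ift52 stood at -0.43 and Ift22, Ift57, Ift46, Ift80, Ift20 and Ift172 between -0.05 and 0.21.

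Of 9 measured genes of the BBSome and its assembly, 0 passed. At an unadjusted p under 0.05, 2 were lower and 0 higher, where 7.34% of all genes were lower. Bbs12, a chaperonin-like protein that helps assemble the BBSome, had 3.77, 4.35, 4.50 and 4.31 after KCl against 4.75, 4.76, 4.77 and 4.54 in untreated cultures. The groups did not overlap, but the levels straddle the median of all probe sets and the log2 change of -0.47 (SE 0.157) did not pass (adjusted p = 0.209). Without both arrays numbered 1 the change was -0.31 (adjusted p = 0.301). Bbs4, a BBSome subunit that also sits at centriolar satellites, had 8.74, 8.32, 8.45 and 8.54 on KCl arrays against 8.78, 8.65, 9.04 and 8.91 on untreated arrays. It was lower in 4 of 4 pairs with a log2 change of -0.33 (SE 0.125, adjusted p = 0.286).

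Bbs10, the other chaperonin-like member, had a change of opposite sign, with 4.02, 4.40, 5.23 and 4.84 on KCl arrays against 3.87, 4.05, 4.18 and 4.22 on untreated arrays. All 4 pairs were higher, with a log2 change of 0.54 (SE 0.240, adjusted p = 0.391). Its levels were dim too, with every untreated value and KCl arrays 1 and 2 below the median of all probe sets (4.44 to 4.48 per array). The coat subunits Ttc8 (-0.55), Bbs1 (-0.22), Bbs7 (-0.20), Bbs5 (-0.15), Bbs2 (-0.14) and Bbs9 (0.23) had intervals that all included 0.

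At the transition zone, 0 of 10 measured genes passed with all arrays, and 0 had an unadjusted p under 0.05 in either direction. Of these, 9 had log2 changes below 0, from -0.88 to -0.02, and Tctn3 stood at 0.20. Cep290, which spans the gap between microtubules and membrane and is mutated in several ciliopathies, had 6.44, 5.01, 4.99 and 4.90 on KCl arrays against 6.22, 5.61, 6.31 and 6.13 on untreated arrays. KCl array 1 was the highest of all 8 and the other KCl arrays were the 3 lowest. The log2 change was -0.74 (SE 0.344, adjusted p = 0.425) with all arrays. It was -1.05 without both arrays numbered 1 (adjusted p = 0.041, 0.0493 with the block), and without KCl array 1 alone the adjusted p was 0.0254.

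Cc2d2a, a large scaffold of the tectonic complex, had 7.25, 5.89, 5.62 and 4.74 on KCl arrays against 7.53, 6.16, 6.58 and 6.78 on untreated arrays. It was lower in 4 of 4 pairs, with differences from -0.26 to -2.04, and its log2 change of -0.88 had an SE of 0.503 (adjusted p = 0.558). Without both arrays numbered 1 the change was -1.09 (adjusted p = 0.153). Tctn3, a tectonic, had 6.85, 6.71, 6.66 and 6.11 on KCl arrays against 6.50, 6.10, 6.59 and 6.36 on untreated arrays, and its dimmer second probe set had a log2 change of -0.06. The remaining gate genes were Tctn2 (-0.29), Nphp4 (-0.24), B9d1 (-0.20), Ahi1 (-0.09), Mks1 (-0.05), Rpgrip1l (-0.02) and B9d2 (-0.02). Among these Ahi1, a Joubert syndrome gene, varied little, with 9.64 to 9.89 on KCl arrays and 9.66 to 9.93 on untreated arrays.

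Basal body and membrane roles complete the list. Cep164, the distal appendage protein that docks the basal body, had 4.88, 4.92, 4.47 and 4.51 on KCl arrays against 4.66, 5.23, 4.82 and 4.93 on untreated arrays (log2 change -0.22, adjusted p = 0.704). Ofd1, which limits centriole length, had 5.76, 5.21, 5.09 and 5.04 on KCl arrays against 5.45, 5.40, 5.39 and 5.64 on untreated arrays (-0.20, adjusted p = 0.752). Both were higher after KCl in pair 1 and lower in the other 3. Tulp3, the adaptor that hands receptors to IFT-A for entry, had 7.74, 6.54, 6.16 and 6.25 on KCl arrays against 7.79, 6.85, 6.53 and 6.38 on untreated arrays (-0.22, adjusted p = 0.933).

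**Figure D2:**
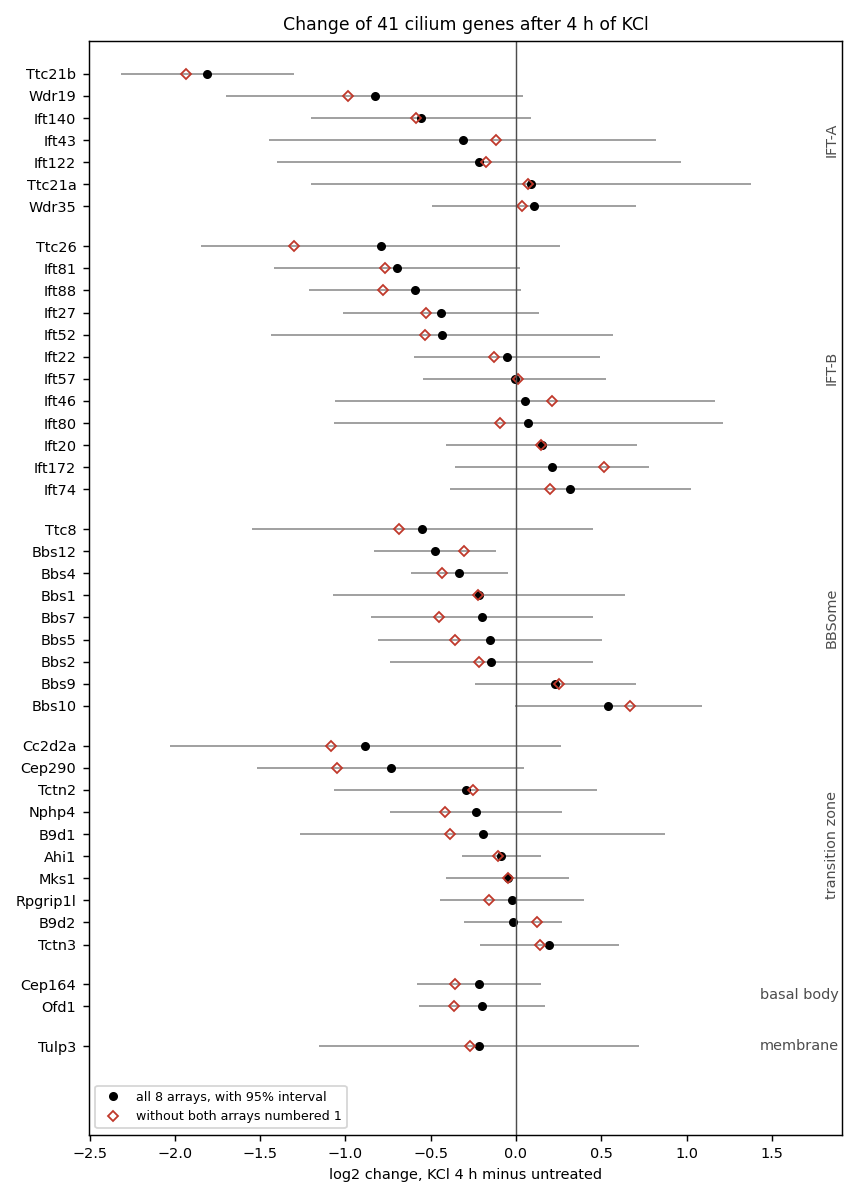
Log2 change (KCl 4 h minus untreated) of the 41 cilium genes by role group. Black points are fits of all 8 arrays with 95% intervals, and red diamonds are fits without both arrays numbered 1. Most points lie left of 0, and the interval of Ttc21b is the one farthest from 0.

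Taken by direction alone, 31 of 41 members had a log2 change below 0 and 10 above, where 52.9% of all genes were below 0. The median was -0.20 over the members, -0.17 over 22 other IFT, BBSome and transition zone genes, and -0.01 over all genes. Without both arrays numbered 1 the members' median was -0.25, with 30 members below 0. It rested on single arrays too: it was -0.41 without KCl array 1 and -0.012 without untreated array 1. The count of members below 0 did so as well, running from 21 to 35 with single arrays left out. Pair by pair, the median difference over the members was -0.02 in pair 1, -0.15 in pair 2, -0.30 in pair 3 and -0.42 in pair 4, against -0.02 to -0.01 over all genes. Over the 22 other IFT, BBSome and transition zone genes it was -0.02, -0.01, -0.22 and -0.46. The members lower after KCl numbered 22, 27, 30 and 33 of 41 in the same order of pairs. Over all 22180 genes these counts were 11300, 11470, 11850 and 11340. In all 4 pairs, 13 of 41 members were lower, where 13.2% of all genes were, and 2 of 41 were higher (Bbs10 and the Golgi-linked IFT-B gene Ift20), against 11.0%. Members are not independent of one another, since they share these 8 arrays, and no p is given for the list.

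Most members also differed between the arrays numbered 1 and the rest, in both groups. In 23 of 41, both arrays numbered 1 lay above all the other 6, which held for 8.73% of all genes, and in 1, Bbs10, both lay below, against 8.01%. This count was chosen after the values were seen. The 23 comprised 6 of 7 IFT-A genes (all but Ttc21b), 9 of 12 IFT-B genes, 3 of 9 BBSome genes, 4 of 10 transition zone genes and Tulp3. Ift80, for example, stood at 8.78 and 8.20 on the KCl and untreated arrays numbered 1, against 6.59 to 7.31 on the other 3 KCl arrays and 6.73 to 7.14 on the other 3 untreated arrays. Ttc21b did not follow, since its untreated array 1 was the lowest of its group. The median SE of the members was 0.273 without the block and 0.157 with it, against 0.142 and 0.119 over all genes.

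**Figure D3:**
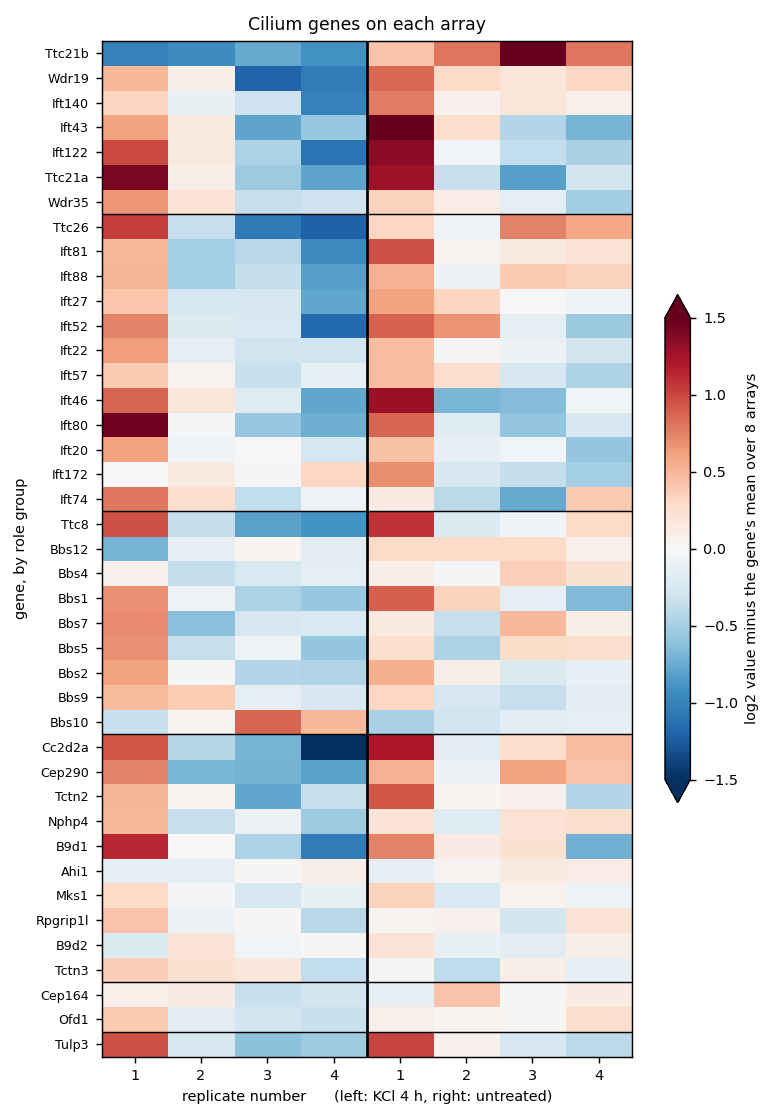
Log2 value of each cilium gene minus its mean over the 8 arrays (colour, saturated at 1.5), with KCl arrays 1 to 4 left of the vertical line and untreated arrays 1 to 4 right of it. Horizontal lines part the role groups. Columns numbered 1 are red for most genes in both groups, whereas Ttc21b, in the top row, is blue on all 4 KCl arrays and red on all 4 untreated arrays.

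Markers of multiciliated ependymal cells differed between the arrays in the same way. Of 13 measured, 12 had both arrays numbered 1 above the other 6, and their mean was 7.23 on KCl array 1 and 7.13 on untreated array 1, against 5.02 to 5.57 on the other 6. Foxj1, the master regulator of motile cilia, had 7.46, 5.85, 4.96 and 5.57 on KCl arrays against 8.07, 6.27, 4.96 and 5.27 on untreated arrays. Rsph1, a radial spoke protein of motile cilia, had 7.89 on KCl array 1 and 7.69 on untreated array 1, against 5.01 to 5.74 on the rest. The 40 members without Ttc21b averaged 7.18 on KCl array 1 and 7.19 on untreated array 1, and 6.12 to 6.54 on the other KCl arrays against 6.57 to 6.61 on the other untreated arrays. Astrocyte markers had 6 of 9 highest on both arrays numbered 1, and neuron markers had 7 of 14 lowest there. The part of these cells in the members' levels was not tested.

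Between KCl and untreated cultures 0 of 13 multiciliated markers passed, 0 had an unadjusted limma p under 0.05, and their means were 5.23 to 7.23 after KCl and 5.02 to 7.13 untreated. The smallest p among them was that of the radial spoke gene Rsph4a (log2 change 1.19, adjusted p = 0.429). Of the other marker lists, the glutamate transporter gene Slc1a2 fell among 9 astrocyte markers (log2 change -0.78, adjusted p = 0.0479), a call lost with the block (0.062) and without both arrays numbered 1 (0.13). The DNA clamp gene Pcna rose among 10 progenitor and cycling markers (0.81, adjusted p = 0.0191), and without both arrays numbered 1 Cdk1, a driver of cell division, passed as well. The median log2 change over those 10 genes was 0.45, against -0.01 over all genes. Their mean was 6.18, 6.49, 6.46 and 5.93 on KCl arrays against 5.88, 6.07, 5.77 and 5.60 on untreated arrays, higher in each pair, although the groups overlapped. The part of these cells in the members' levels was not tested either. No marker passed among neurons (smallest p Gad1, adjusted p = 0.353), the oligodendrocyte lineage (Mag, 0.605), microglia (Aif1, 0.663), endothelial and mural cells (Flt1, 0.583) or meningeal fibroblasts (Dcn, 0.682), although the neuron marker Gad2 and the progenitor marker Pax6 did with the block (Gad2 lower, Pax6 higher).

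**Figure D4:**
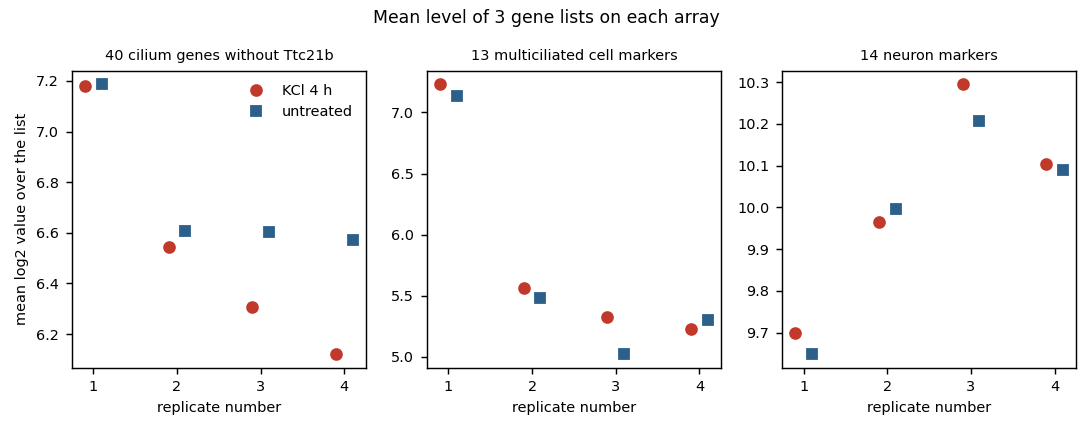
Mean log2 value over 3 gene lists on each array, by replicate number, with KCl arrays as circles left of the untreated arrays as squares. The cilium genes and the multiciliated cell markers are highest on both arrays numbered 1, where the neuron markers are lowest.

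X-boxes in the members' promoters are shown because RFX factors act through them on many ciliary genes. Promoter windows were found in the RefSeq table for 38 of 41 members, all but Ift80, Ift81 and Ift122. An X-box on either strand was present in 7 of 38 members, against 3.21% of 16990 measured genes with a window. The half-site GTTGCC, which most of these X-boxes contain, was present in 19 of 38 against 14.1%. Of the 20 members with a window whose arrays numbered 1 were both highest, 4 had an X-box, beside 7 of all 38. Any link between the sites and the differences between arrays was not tested. The full cAMP response element TGACGTCA was present in 1 member (Ift57) against 2.65% of genes, its half-site TGACG in 15 against 26.8% and the AP-1 site TGANTCA in 2 against 8.42%. Matches describe letters and were not tested as sites. The matches are given below in capitals with 8 bases on each side, and that of Ttc21a stands in its window above.
Ahi1, chr10:20952560-20952589, + strand: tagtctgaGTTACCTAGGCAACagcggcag
B9d2, chr7:25680788-25680817, + strand: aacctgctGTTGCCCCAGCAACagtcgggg
Bbs1, chr19:4906605-4906634, - strand: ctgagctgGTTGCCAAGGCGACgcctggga
Ift57, chr16:49699199-49699228, + strand: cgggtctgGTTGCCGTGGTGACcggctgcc
Ift57, chr16:49699226-49699254, + strand: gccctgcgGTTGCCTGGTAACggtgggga
Tctn2, chr5:124598679-124598708, + strand: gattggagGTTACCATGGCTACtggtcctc
Tctn3, chr19:40612351-40612379, - strand: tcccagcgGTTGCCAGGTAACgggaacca

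Among RFX and other ciliogenic factors, 0 of 12 passed, with 1 at an unadjusted limma p under 0.05, where 13.0% of all genes stood in either direction. Rfx3, which drives primary cilium genes in mice, had 9.34 to 9.40 on KCl arrays against 9.41 to 9.61 on untreated arrays, a log2 change of -0.13 (adjusted p = 0.613). Rfx5, better known for immune genes, had 5.98, 6.21, 5.97 and 5.35 on KCl arrays against 6.44, 7.03, 6.83 and 7.15 on untreated arrays and narrowly missed the threshold (-0.98, adjusted p = 0.0571). Both arrays numbered 1 were highest for 5 of the 12, Foxj1 among them.

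The rest of the ciliary machinery gave few calls, and genes that neither passed nor led their list were picked out here and above after their values were seen. Of 22 other IFT, BBSome and transition zone genes 0 passed, with 2 at an unadjusted limma p under 0.05, led by the tubulin glutamylation gene Cep41 (log2 change -0.55, adjusted p = 0.123, 0.0273 with the block, 0.0847 with the block and without both arrays numbered 1). Of 10 kinesin-2 and dynein-2 motor genes 0 passed, with 1 at an unadjusted p under 0.05, the dynein-2 light chain gene Tctex1d2 (-0.32, adjusted p = 0.315). The heavy chain gene Dync2h1, which powers IFT-A trains, stood at 0.12, and the kinesin-2 motor gene Kif3a at -0.10. Of 12 ciliary receptors and their effectors 0 passed and 0 had an unadjusted p under 0.05, with the melanin-concentrating hormone receptor gene Mchr1 at -0.36 (adjusted p = 0.393) and the somatostatin receptor gene Sstr3 at -0.26.

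Among 24 centriole appendage and cilium initiation genes, 1 fell and 0 rose, where 1.02% of all genes fell and 1.34% rose. Ehd3, a membrane-shaping ATPase of the ciliary vesicle, had 9.38, 9.49, 9.39 and 9.49 after KCl against 10.15, 10.06, 10.15 and 10.14 in untreated cultures. The groups were tight and did not overlap, with a log2 change of -0.69 (SE 0.077, adjusted p = 0.00454), and on the 6 arrays numbered 2 to 4 with the block it did not pass (0.0529). The distal appendage gene Cep83, chosen after its values were seen, had 9.10, 7.92, 8.39 and 8.04 on KCl arrays against 7.73, 7.14, 7.17 and 7.23 on untreated arrays. It was higher in all pairs by a log2 change of 1.05 that missed the threshold (adjusted p = 0.0905) and passed with the block (0.0127) and without both arrays numbered 1 (0.0257). Among 9 cilium disassembly genes, 1 rose: Ndel1, a dynein regulator that also acts in neuronal migration, had 9.03, 8.98, 9.56 and 9.22 on KCl arrays against 7.97, 7.85, 8.27 and 8.62 on untreated arrays (log2 change 1.02, SE 0.196, adjusted p = 0.0361). That call was lost without both arrays numbered 1 (adjusted p = 0.087) and kept on those 6 arrays with the block (0.0492).

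The Hedgehog pathway, which signals through the cilium, had 2 of 15 genes higher and 0 lower, where 1.34% of all genes were higher and 1.02% lower. Cdon, a co-receptor for Hedgehog ligands, had 8.01, 8.10, 8.20 and 8.38 after KCl against 7.56, 7.52, 7.50 and 7.22 in untreated cultures, a log2 change of 0.72 (SE 0.116, adjusted p = 0.0186). Hhip, a decoy that binds the ligands and is itself a target of the pathway, had 6.69, 6.28, 6.72 and 6.06 on KCl arrays against 5.08, 5.43, 5.58 and 4.84 on untreated arrays (1.20, SE 0.208, adjusted p = 0.0245). Neither pair of groups overlapped, and without both arrays numbered 1 Cdon passed (adjusted p = 0.0316) and Hhip did not (0.0851). With the block on those 6 arrays the calls changed places, Cdon at an adjusted p of 0.0621 and Hhip at 0.0252. With the block on all 8 arrays 4 passed, all higher. Over all 22180 genes the block likewise raised the higher calls, from 297 to 539. Gpr161, the ciliary receptor that restrains Hedgehog output, joined Cdon and Hhip (log2 change 0.65, adjusted p = 0.0308, 0.0673 without the block). So did Ptch1, the ligand receptor and target gene (0.75, adjusted p = 0.0273, 0.392 without). Neither of these 2 passed with the block once both arrays numbered 1 were left out (adjusted p = 0.0815 for Gpr161 and 0.0562 for Ptch1). The target gene Gli1 stood at 0.01 and lay below the median of all probe sets, and the transducer Smo stood at -0.07.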

How the data were processed

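Per the labels' protocols, RNA of 8 cultures was labelled for Affymetrix arrays with the WT Plus kit. The table the authors deposited holds log2 probe set values. The submitters' processing notes list Partek and RMA, without versions. No source used here gives any batch adjustment. RMA scales arrays against one another and narrows differences of dim probe sets. Values were used as deposited, with no filter on low values.

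Probe sets were named from GEO's platform annotation: of 34472, 23521 had 1 symbol, 1814 several and 9137 were unnamed here. The brightest probe set per gene left 22180 genes. Groups came from the titles. Tests used lmFit and eBayes of limma 3.58.1 (R 4.3.3, two-sided, group as the single term), with Benjamini-Hochberg adjustment over all genes and a threshold of 0.05. The fit was also run on simulated arrays drawn independently of one another. Those lack the shared pattern by replicate number, so the run does not show how the fit behaves with it. Members, lists and alternatives were chosen with earlier results of these data known. The rule for named genes takes members past the threshold, the 3 smallest p per role group and Ttc21a, and in 15 other lists the genes past the threshold or else the smallest p.

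Deviations from the group means correlated across genes at 0.23 to 0.64 for the 4 same-numbered pairs and at -0.48 to 0.30 for other pairs, so the numbers were treated as pairs. No litter or day is given in the labels. Promoter sequences are RefSeq's (GRCm38.p6). Alternatives were the replicate block, repeated quantile normalization, median centring, brighter genes only, the mean of all probe sets, trended and robust eBayes, array weights, leaving out each array, and leaving out both arrays numbered 1. The last of these was also combined with the block, an alternative added after seeing the data.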

Additional observations from a re-analysis of the deposited data

Results flagged for a closer look

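In 10 of 114 groups of 4 arrays (57 genes), the highest or the lowest array lay so far from the other 3 that its gap exceeded Dixon's 95% critical value. Chance alone flags about 5% of groups, and 4 of the 10 were arrays numbered 1. Among the members, Cep290 stood at 6.44 on KCl array 1, against 4.90 to 5.01 on the other 3. Untreated array 1 was the high one for Ift140, at 7.42 against 6.70 to 6.82, and for Ift81, at 7.85 against 6.94 to 7.10. Untreated array 2 was the low one for Bbs5, at 5.86 against 6.57 to 6.61, and for Nphp4, at 4.45 against 4.84 to 4.91. Bbs12 stood at 4.54 on untreated array 4, against 4.75 to 4.77 on the other 3. Outside the members, untreated array 2 was low for Ehd3 (10.06, against 10.14 to 10.15), untreated array 4 for Cdon (7.22, against 7.50 to 7.56) and Aif1 (3.89, against 4.28 to 4.32), and untreated array 1 for Flt1 (3.78, against 3.87 to 3.88).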

How the results depend on the processing

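Over 17 alternatives, 14 of the 16 named members kept their side of the threshold in every fit that held them (Bbs10 and Bbs12 were not among the brighter genes), Ttc21b among them, and the exceptions were Ift81 and Cep290 as given above. With the replicate block, 2 members were lower, 446 genes were lower and 539 higher in all, and 2 of the other cilium genes were lower and 6 higher, against 1 and 3 without it. Leaving out both arrays numbered 1 gave 2 lower members whether or not the block was used, and with the block 0 of the other cilium genes were lower. That count was 2 among brighter genes and with array weights, Rfx5 being the addition (adjusted p = 0.039 and 0.037). Trended and robust eBayes called 150 genes lower. With single arrays left out, members lower numbered 1 to 2, members higher 0, all genes lower 68 to 247 and higher 118 to 254 (both lowest without KCl array 3), other cilium genes lower 1 to 2 and higher 0 to 2, and the members' median log2 change was -0.41 to -0.012. Calls were lost for Cdon without KCl array 3 or 4 or untreated array 2 or 3 (adjusted p up to 0.067), and for Pcna without KCl array 2, 3 or 4 or untreated array 4 (0.067). They held for Hhip only without KCl array 4 or untreated array 3 (otherwise up to 0.078), for Ndel1 only without untreated array 4 (0.102) and for Slc1a2 only without untreated array 2 (0.14). That of Ehd3 was lost only without both arrays numbered 1 and with the block (0.053). The cause of these shifts was not tested. The number of arrays, 4 per group, limits the precision.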
